A study of Mus musculus with 16 samples.

Results

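The ventricular level of 10 genes that lie away from chromosome 3 differed with the Npr1 genotype, in nulliparous mice, in lactation or in both: Plaat1, Crispld1, Slc52a3, Slc4a8, Gm3448, Hebp2, Slco2a1, Sdc2, Cdc23 and Tox4. They are 10 of 21154 genes with a named probe and of 14065 tested genes, and all 10 were well above background on every array of at least 1 group. The genes were picked from a list of symbols that rested on their measured levels in these same 16 mice, so their levels and differences are given as a description, with no test. Each gene is represented by its brightest probe, matched through the probe's RefSeq accession. The other probe of Tox4 did not show the difference of the brightest.

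Ventricular RNA came from 16 female mice, each on its own single-colour array. The 4 groups of 4 mice were nulliparous Npr1+/+ (wild-type), Npr1+/+ at 2 weeks of lactation, nulliparous Npr1-/- (knockout) and Npr1-/- at 2 weeks of lactation. The sources used here did not give the strain, the age or whether the knockout was made in all cells, and the lactating mice had also been through pregnancy. Each level is the log2 signal of the probe less that array's 75th percentile, so a difference of 1 is a doubling, and each difference is given ± the standard error (SE) of a limma fit over all genes, with n = 4 mice per group.

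Npr1 encodes the guanylyl cyclase receptor for the natriuretic peptides that the heart secretes, and signalling through it is known to restrain growth of the heart. The gene lies on mouse chromosome 3. The genes described here lie on other chromosomes and serve unrelated tasks: membrane lipid remodelling (Plaat1), secretion of a matrix-type protein (Crispld1), transport of riboflavin (Slc52a3), bicarbonate (Slc4a8) and prostaglandins (Slco2a1), haem binding (Hebp2), cell division (Cdc23), regulation of a nuclear phosphatase (Tox4) and heparan sulphate display (Sdc2).

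Signal at the 75th percentile was between 198 and 221 in nulliparous wild-type, 278 and 309 in lactating wild-type, 165 and 284 in nulliparous knockout and 295 and 347 in lactating knockout mice. Between 48.2% and 58.6% of probes were well above background on an array, and the small number of arrays limits the precision of every value. Nulliparous knockout replicate 4 stood apart: on the first principal component it scored 14.55, against -46.91 to -39.33 for the other nulliparous mice and 27.67 to 42.01 for the lactating mice. The probe for Npr1 was well above background on 9 of 16 arrays, between -4.68 and -3.53, and so checks no label. All 6 markers of ventricular cardiomyocytes were well above background on 16 arrays. In bulk tissue, fewer cells of a type and less RNA per cell cannot be told apart.

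Set against nulliparous wild-type mice, 7 of the 10 genes were higher in nulliparous knockouts on all 4 arrays against all 4, none was wholly lower and 3 overlapped. Over the tested genes 3.23% were wholly higher and 0.825% wholly lower in that comparison. In lactating mice 5 genes were wholly higher and 2 wholly lower in the knockout, and 3 overlapped (3.22% and 4.54% of tested genes). Lactation in wild-type mice had 4 of the genes wholly higher and 1 wholly lower (30.4% and 16.9% of tested genes), and lactation in knockouts had 3 wholly higher and none lower (19% and 14.1%). Since the genes were chosen for such differences, these counts describe the choice. The median difference over the 10 genes was 0.89 for genotype in nulliparous mice and 0.55 in lactating mice, against 0.05 and -0.00057 over all tested genes. For wild-type lactation it was 0.52 against 0.10, and for knockout lactation 0.33 against 0.06.

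By group pattern the genes fell into 3 sets. Plaat1, Crispld1, Slc52a3 and Gm3448 were wholly higher both in nulliparous knockouts and in lactating wild-type mice than in nulliparous wild-type mice, and Slc4a8 was wholly higher in the first and overlapped in the second. Hebp2 and Slco2a1 were wholly higher in knockouts in both states. Plaat1 was so too, though by only 0.20 ± 0.32 in lactation. Sdc2, Cdc23 and Tox4 overlapped between the genotypes in nulliparous mice and separated without overlap only in lactation. For Tox4 this rests on its brighter probe, as its other probe differed by only 0.018 between lactating genotypes. On the brighter probe nulliparous knockout replicate 4, at 0.94, also lay below every wild-type array. The comparisons of nulliparous knockouts and of lactating wild-type mice share the same 4 nulliparous wild-type arrays, so their values are set side by side and no relation between them is drawn.

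**Figure D1:**
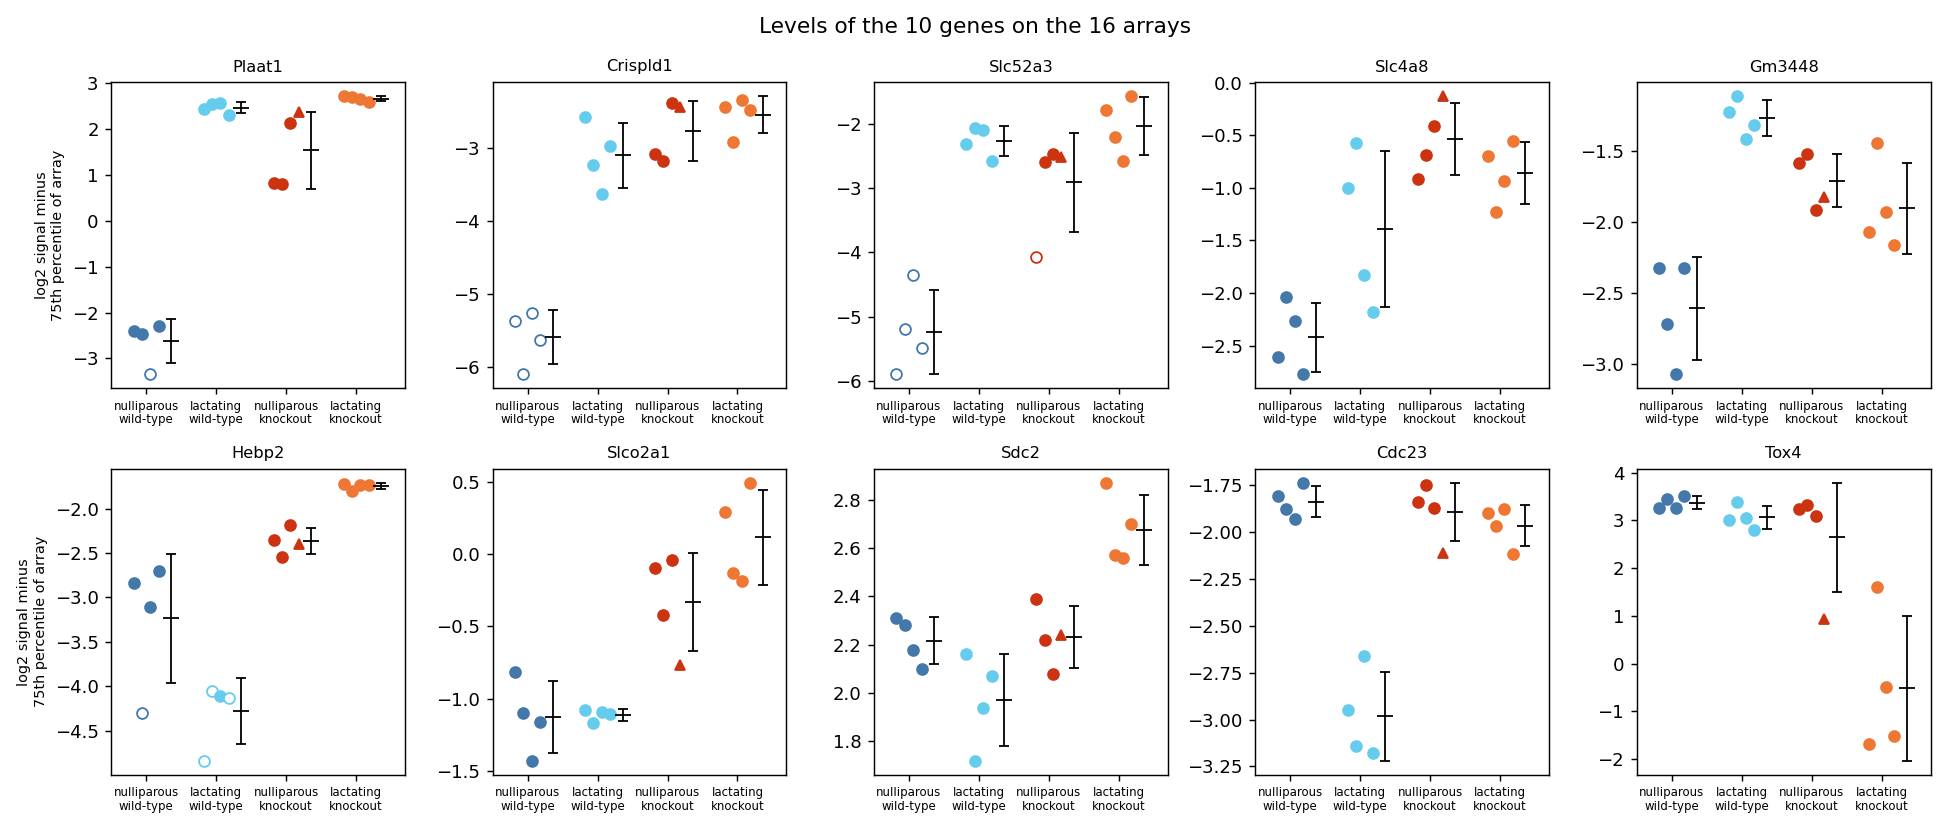
Level of each gene (log2 signal, scaled to the 75th percentile of each array) on all 16 arrays, 1 panel per gene with its own vertical scale. Points are mice, open points lay not well above background, the triangle is nulliparous knockout replicate 4, and bars are mean ± SD (n = 4). The top row holds the 4 genes whose nulliparous knockout and lactating wild-type arrays both lay above nulliparous wild-type, with Slc4a8 as the fifth gene described beside them.

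Plaat1 encodes a phospholipase A and acyltransferase that moves fatty acyl chains between membrane phospholipids, and it lies on chromosome 16. Its level was -2.40, -2.47, -3.34 and -2.29 in nulliparous wild-type mice, and 2.44, 2.55, 2.56 and 2.30 in lactating wild-type mice. The nulliparous knockouts measured 0.82, 0.80, 2.14 and 2.37, and the lactating knockouts 2.71, 2.70, 2.65 and 2.60. Every nulliparous wild-type array was below 0 and each of the other 12 was above it. The nulliparous difference between genotypes was 4.16 ± 0.32, or 17.9-fold, and lactation in wild-type mice gave 5.09 ± 0.32, or 33.9-fold. The lactating genotypes differed by 0.20 ± 0.32, with the 4 knockout arrays just above the wild-type ones, and lactation in knockouts gave 1.13 ± 0.32, or 2.19-fold.

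Within the nulliparous knockouts Plaat1 came at 2 levels, with replicates 1 and 2 low and replicates 3 and 4 high. These pairs were also the 2 slides, 1 slide holding replicates 1 and 2 of every group. Slide by slide the nulliparous genotype difference was 3.25 and 5.07, and that of lactation in knockouts 1.90 and 0.36, while wild-type lactation gave 4.93 and 5.24. The part of the slide in that spread was not tested. In order of group mean, nulliparous wild-type was lowest, then nulliparous knockout, lactating wild-type and lactating knockout. Nulliparous knockout and lactating wild-type overlapped, through replicate 4, without which the knockout was wholly lower. The only relative of Plaat1 that could be tested, the phospholipase gene Plaat3, differed by 0.03 ± 0.09 between nulliparous genotypes and by -0.04 ± 0.09 in wild-type lactation (limma, adjusted p of 0.947 and 0.777).

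Crispld1, on chromosome 1, encodes a secreted protein of the cysteine-rich CAP family. Nulliparous wild-type mice measured -5.37, -6.10, -5.26 and -5.63, and none of these arrays was well above background. The levels were -2.58, -3.24, -3.63 and -2.97 in lactating wild-type and -3.08, -3.18, -2.39 and -2.44 in nulliparous knockout mice. Lactating knockouts measured -2.44, -2.92, -2.35 and -2.48. The 3 measurable groups overlapped one another, and all lay above the nulliparous wild-type group. Against that group Crispld1 was at least 4.47-fold higher in nulliparous knockouts and at least 3.54-fold higher in lactating wild-type mice. Such a bound sets the mean of the brighter group against, for each dim array, the higher of its own value and the lowest signal of any probe well above background there. These bounds hold for the processed signal only, and with normexp background correction the values were 1.39- and 1.11-fold. The measured differences were 2.82 ± 0.25 and 2.49 ± 0.25, and the genotypes differed by 0.56 ± 0.25 in lactation.

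Among the other CAP genes, 5 of 13 could be tested and limma called none between genotypes. In wild-type lactation 2 rose and 2 fell, and the same counts held in knockout lactation. Over all tested genes 31.8% rose and 18.5% fell in wild-type lactation, and 25.5% and 18.6% in knockout lactation. The lactation counts of this and the later gene lists are to be read beside these shares. Glipr1, a CAP gene named from glioma, was at least 2.64-fold higher in wild-type and at least 2.97-fold higher in knockout lactation (adjusted p of 0.000926 and 0.00146). Clec18a, which joins a CAP domain to a lectin domain, fell by 1.07 ± 0.22 and by 1.26 ± 0.22 (adjusted p of 0.00119 and 0.000954). The Glipr1 calls ended with normexp background correction, where its differences were 0.025 and -0.034. Macrophage markers rose in lactation as well, 5 of 6 in each genotype by limma, with a summed signal of 20.2 to 24.2 in nulliparous and 36.5 to 43.1 in lactating wild-type mice and 18.2 to 34 and 40 to 49 in knockouts. Their part in the Glipr1 result was not tested.

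Slc52a3, on chromosome 2, encodes a plasma membrane transporter for riboflavin, the vitamin from which flavin cofactors are made. The nulliparous wild-type arrays were not well above background, at -5.89, -5.19, -4.35 and -5.49. Lactating wild-type mice measured -2.32, -2.06, -2.10 and -2.57, and lactating knockouts -1.78, -2.21, -2.58 and -1.57. The nulliparous knockouts measured -4.07, -2.59, -2.47 and -2.51, with 3 of 4 arrays above background. Replicate 1 of that group was low, close to the highest nulliparous wild-type array, and the other 3 overlapped the lactating groups. For nulliparous knockouts against nulliparous wild-type mice, the bound as computed for Crispld1 came to 3.75-fold. It is not a firm one, as knockout replicate 1 was itself not well above background. In lactating wild-type mice Slc52a3 was at least 5.86-fold higher than in nulliparous wild-type mice. With normexp these were 1.29- and 1.30-fold, below both values from the processed signal. The measured differences were 2.32 ± 0.37 and 2.97 ± 0.37, and the lactating genotypes differed by 0.23 ± 0.37. Of 4 genes of riboflavin uptake and flavin synthesis, limma called none between genotypes and 1, the riboflavin kinase gene Rfk, in lactation, where it rose by 0.42 ± 0.12 in wild-type and 0.45 ± 0.12 in knockout mice (adjusted p of 0.00864 and 0.00786).

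Gm3448, on chromosome 17, is a predicted gene of the t-complex testis-expressed dynein light chain family. Near-identical copies lie beside it, so which copy gave the signal is uncertain. Its level was -2.32, -2.72, -3.07 and -2.32 in nulliparous wild-type and -1.22, -1.11, -1.41 and -1.31 in lactating wild-type mice. Knockouts measured -1.58, -1.52, -1.91 and -1.82 when nulliparous and -2.07, -1.44, -1.93 and -2.16 in lactation. The lactating wild-type arrays were the highest, both knockout groups lay between and overlapped each other, and nulliparous wild-type was the lowest. Gm3448 was 1.87-fold higher in nulliparous knockouts than in their wild-type group (0.90 ± 0.18) and 1.55-fold lower in lactating knockouts than in theirs (-0.63 ± 0.18). Lactation gave 1.34 ± 0.18 in wild-type mice, or 2.54-fold, and -0.19 ± 0.18 in knockouts.

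A second probe for Gm3448 gave differences of 0.64 and -0.40 for genotype in nulliparous and lactating mice and 1.00 and -0.04 for lactation in wild-type and knockout mice. Its signs were those of the brighter probe. On this second probe the lactating genotypes overlapped, at -2.29 to -1.18 in wild-type and -2.29 to -1.71 in knockout mice. Among Tctex-type dynein light chains 4 of 14 could be tested, limma called none between genotypes, and 3 rose in wild-type and 2 in knockout lactation. Dynlt1f rose by 1.14 ± 0.21 and 0.63 ± 0.21, and Dynlt3 by 0.41 ± 0.11 and 0.44 ± 0.11 (adjusted p of 0.000705 and 0.0268, and of 0.00741 and 0.00597). Dynlt1c rose by 0.73 ± 0.20 in wild-type lactation and differed by 0.21 ± 0.20 in knockouts (adjusted p of 0.00843 and 0.416). The Dynlt1f call in knockouts ended when any of nulliparous knockout replicates 1, 2 or 3 or lactating knockout replicates 1, 3 or 4 was left out (adjusted p of 0.0502 to 0.0891).

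RefSeq start-site sequence in the GRCm38.p6 build was at hand for 6 of the 10 genes, with 7 windows, Plaat1 having 2. The windows reach 250 bases upstream of the start site and were searched on both strands for 8 motifs. Plaat1 and Gm3448 are shown because they share the pattern of nulliparous knockout and wild-type lactation both above nulliparous wild-type. Capitals mark a motif found, and for Plaat1 the window of the start site farther upstream is given.
Plaat1 upstream window, chr16:29209445-29209694, plus strand: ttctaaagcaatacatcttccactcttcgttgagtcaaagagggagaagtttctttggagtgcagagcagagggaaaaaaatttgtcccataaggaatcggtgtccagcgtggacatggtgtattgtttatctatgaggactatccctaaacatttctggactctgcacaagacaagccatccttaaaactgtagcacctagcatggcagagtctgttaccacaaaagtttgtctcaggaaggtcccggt
Gm3448 upstream window, chr17:15010185-15010434, minus strand: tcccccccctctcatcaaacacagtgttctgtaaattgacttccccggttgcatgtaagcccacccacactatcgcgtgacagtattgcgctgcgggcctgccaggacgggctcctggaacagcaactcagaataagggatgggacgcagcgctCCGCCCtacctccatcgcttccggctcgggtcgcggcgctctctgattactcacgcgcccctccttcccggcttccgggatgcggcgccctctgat
Neither Plaat1 window held any of the motifs, and 67.2% of the window not shown was G or C, against 44% of the one printed. The Gm3448 window was 62% G or C and held 1 GC box, GGGCGG on the opposite strand, which 32.7% of 32851 windows held.

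Slc4a8, on chromosome 15, encodes a sodium-driven exchanger of chloride and bicarbonate. Nulliparous wild-type mice measured -2.61, -2.04, -2.27 and -2.77 and lactating wild-type mice -1.0, -0.57, -1.83 and -2.18. The nulliparous knockouts measured -0.92, -0.69, -0.41 and -0.13 and the lactating knockouts -0.70, -1.23, -0.94 and -0.56. The lactating wild-type mice were spread, with replicates 1 and 2 among the knockouts and replicates 3 and 4 close to or among the nulliparous wild-type mice. Nulliparous knockouts were wholly higher than their wild-type group by 1.89 ± 0.30, or 3.69-fold. Lactation in wild-type mice gave 1.03 ± 0.30 with overlapping arrays, the lactating genotypes differed by 0.54 ± 0.30, and lactation in knockouts gave -0.32 ± 0.30.

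The split of the lactating wild-type mice in Slc4a8 was again by slide. On the slide of replicates 1 and 2 wild-type lactation gave 1.54 and the lactating genotypes differed by -0.18. On the other slide these were 0.51 and 1.26, so the lactating genotype difference had opposite signs on the 2 slides. Of 12 other genes of bicarbonate transport and pH control limma called none between genotypes. In wild-type lactation 4 rose and 3 fell, and in knockouts 2 and 3. Car2, a carbonic anhydrase, rose by 1.15 ± 0.19 and 1.13 ± 0.19 (adjusted p of 0.000327 and 0.000815), and Slc4a3, a chloride-bicarbonate exchanger of heart and brain, fell by 0.58 ± 0.11 and 0.93 ± 0.11 (adjusted p of 0.000854 and 0.000437). Slc4a7, a sodium-bicarbonate cotransporter, rose by 0.68 ± 0.11 and 0.47 ± 0.11 (adjusted p of 0.000322 and 0.00486), and with its probes averaged the differences were 0.09 and 0.02 and neither was called. The Slc4a8 window was 64.8% G or C and held 1 CCAAT box, as 33.8% of windows did.

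Hebp2, on chromosome 10, encodes a haem-binding protein of the SOUL family. Its level was -2.84, -4.30, -3.11 and -2.70 in nulliparous wild-type and -4.84, -4.05, -4.11 and -4.13 in lactating wild-type mice. Knockouts measured -2.35, -2.54, -2.18 and -2.40 when nulliparous and -1.72, -1.80, -1.73 and -1.74 in lactation. All 8 knockout arrays were well above background and above all 8 wild-type arrays, of which 3 nulliparous and 1 lactating were above background. The genotype difference was 0.87 ± 0.27 in nulliparous mice, or 1.83-fold, and 2.53 ± 0.27 in lactating mice, or 5.78-fold, against a wild-type group with only 1 of 4 arrays above background. With normexp background correction these were 1.18- and 1.86-fold. Lactation gave -1.04 ± 0.27 in wild-type mice, with overlapping arrays, and 0.62 ± 0.27 in knockouts, wholly higher. The order of the group means was lactating wild-type, nulliparous wild-type, nulliparous knockout, lactating knockout.

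Of 17 other genes of haem synthesis, transport and breakdown, limma called none between genotypes. In wild-type lactation 10 rose and 1 fell, and in knockout lactation 6 and 2. Those were 64.7% and 47.1% of the 17, against 50.3% and 44.1% of all tested genes. Alas1, an enzyme of haem synthesis, rose by 1.48 ± 0.22 in wild-type and 0.82 ± 0.22 in knockout lactation (adjusted p of 0.00018 and 0.00792). Hmox1, which breaks haem down, rose by 1.09 ± 0.40 in wild-type lactation and differed by 0.38 ± 0.40 in knockouts (adjusted p of 0.0326 and 0.45). The Hmox1 call ended with its probes averaged (0.51, adjusted p = 0.0989) and without nulliparous wild-type replicate 1, 2 or 4 or lactating wild-type replicate 2, 3 or 4 (adjusted p of 0.0673 to 0.101). Red cell markers, 2 of 3 called higher in wild-type and 3 of 3 in knockout lactation, had summed signals of 340 to 432 and 504 to 690 in nulliparous and lactating wild-type mice and 354 to 423 and 573 to 772 in knockouts. The part of red cells in the haem genes was not tested.

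Slco2a1, on chromosome 9, encodes the prostaglandin transporter, which clears prostaglandins from outside the cell and is made by endothelium. Wild-type mice measured -0.82, -1.10, -1.43 and -1.16 when nulliparous and -1.08, -1.17, -1.09 and -1.11 in lactation. The nulliparous knockouts measured -0.10, -0.42, -0.04 and -0.77 and the lactating knockouts 0.29, -0.13, -0.19 and 0.49. The 2 wild-type groups overlapped, as did the 2 knockout groups, and every knockout array was above every wild-type array. Nulliparous knockout replicate 4 was the lowest knockout and lay just above the highest wild-type mouse. The genotype difference was 0.79 ± 0.18 in nulliparous mice, or 1.73-fold, and 1.23 ± 0.18 in lactating mice, or 2.35-fold. Lactation gave 0.01 ± 0.18 in wild-type and 0.45 ± 0.18 in knockout mice, with overlapping arrays in both.

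The summed signal of 6 endothelial markers was 39.7 to 62.9 in nulliparous and 40.3 to 60 in lactating wild-type mice, and 42.6 to 66.7 and 53.9 to 62.8 in knockouts, and limma called none of the 6 between genotypes. Of 21 other genes of prostanoid synthesis, transport and reception, none was called between genotypes. In wild-type lactation 6 rose and 5 fell, and in knockouts 7 and 6. Ptgds, a prostaglandin D synthase, rose by 2.18 ± 0.27 and 0.98 ± 0.27 (adjusted p of 8.85e-05 and 0.0103). Hpgd, which inactivates prostaglandins after uptake, rose by 1.55 ± 0.25 and 0.93 ± 0.25 (adjusted p of 0.000273 and 0.00809). Tbxas1, the thromboxane synthase, rose by 1.37 ± 0.32 and 1.34 ± 0.32 (adjusted p of 0.00327 and 0.00503).

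The upstream windows of Hebp2 and Slco2a1 are shown, with the motifs found in capitals. Both genes were wholly higher in knockouts in both states.
Hebp2 upstream window, chr10:18546077-18546326, minus strand: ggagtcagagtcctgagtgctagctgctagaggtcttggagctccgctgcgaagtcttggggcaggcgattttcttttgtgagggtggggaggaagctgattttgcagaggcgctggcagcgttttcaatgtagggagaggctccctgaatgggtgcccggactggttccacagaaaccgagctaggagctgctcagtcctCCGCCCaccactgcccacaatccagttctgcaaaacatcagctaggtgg
Slco2a1 upstream window, chr9:103008237-103008486, plus strand: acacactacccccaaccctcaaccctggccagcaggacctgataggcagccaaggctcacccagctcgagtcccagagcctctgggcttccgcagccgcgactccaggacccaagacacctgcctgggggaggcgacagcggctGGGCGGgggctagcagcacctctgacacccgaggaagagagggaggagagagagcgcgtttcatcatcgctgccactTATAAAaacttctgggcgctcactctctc
Each held 1 GC box, and Slco2a1 also held TATAAA, which 12.4% of windows held. A match here is a description of letters. None of the 7 windows held the STAT-type motif TTCNNNGAA (7.02% of all windows), the E-box CACGTG (6.02%) or the CRE TGACGTCA (1.55%). Full palindromes of the glucocorticoid response element (0.00913%) and the direct repeat of the PPAR response element (0.0335%) were not among their letters either.

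Sdc2, on chromosome 15, encodes syndecan-2, a membrane proteoglycan whose heparan sulphate chains bind growth factors and matrix. The levels were 2.31, 2.28, 2.18 and 2.10 in nulliparous and 2.16, 1.72, 1.94 and 2.07 in lactating wild-type mice. Knockouts measured 2.39, 2.22, 2.08 and 2.24 when nulliparous and 2.87, 2.57, 2.56 and 2.70 in lactation. The lactating knockouts lay above all 12 other arrays, and the other 3 groups overlapped. The genotypes differed by 0.02 ± 0.11 in nulliparous mice and by 0.70 ± 0.11, or 1.63-fold, in lactating mice. Lactation gave 0.44 ± 0.11 in knockouts, or 1.36-fold, and -0.24 ± 0.11 in wild-type mice, with overlap.

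Fibroblast markers, whose cells also make Sdc2, summed to 256 to 285 in lactating wild-type and 246 to 305 in lactating knockout mice, and none of 6 was called between genotypes. Of 24 other genes of syndecans, glypicans and heparan sulphate synthesis, limma called none between genotypes, 4 higher and 7 lower in wild-type lactation, and 5 higher and 3 lower in knockout lactation. Hs6st1, a heparan sulphate sulphotransferase, rose by 0.98 ± 0.11 and 0.91 ± 0.11 (adjusted p of 7.35e-05 and 0.000437). Gpc3, a glypican, fell by 0.98 ± 0.16 and 0.90 ± 0.16 (adjusted p of 0.000268 and 0.000969). Extl1, a glycosyltransferase, fell by 1.41 ± 0.24 in wild-type lactation and differed by -0.36 ± 0.24 in knockouts (adjusted p of 0.000376 and 0.236). Without lactating knockout replicate 1 the latter was called (-0.60, adjusted p = 0.0323).

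Cdc23, on chromosome 18, encodes a scaffold subunit of the anaphase-promoting complex, the ubiquitin ligase that ends mitosis and that also acts in cells that no longer divide. Lactating wild-type mice measured -2.95, -3.14, -2.66 and -3.18. The nulliparous wild-type mice measured -1.81, -1.88, -1.93 and -1.74, the nulliparous knockouts -1.84, -1.75, -1.87 and -2.11, and the lactating knockouts -1.90, -1.97, -1.88 and -2.12. The lactating wild-type arrays were lower than the other 12, which overlapped across their 3 groups. The genotypes differed by -0.06 ± 0.11 in nulliparous mice and by 1.01 ± 0.11, or 2.02-fold, in lactating mice. Lactation gave -1.14 ± 0.11 in wild-type mice, or 2.21-fold lower, and -0.08 ± 0.11 in knockouts.

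Of 15 other subunits and partners of the complex limma called none between genotypes. In wild-type lactation 6 rose and 3 fell, and in knockouts 4 and 5. The subunit gene Anapc16 rose by 1.06 ± 0.12 and 0.83 ± 0.12 (adjusted p of 7.51e-05 and 0.000589), and the activators Cdc20 and Fzr1 rose by 1.42 ± 0.31 and 0.77 ± 0.15 in wild-type mice (0.00179 and 0.000782) and by 1.37 ± 0.31 and 0.62 ± 0.15 in knockouts (0.0033 and 0.0041). Of 5 tested markers of dividing cells 4 rose in wild-type and 5 in knockout lactation, with summed signals of 1.16 to 2.18 and 2.25 to 6.19 in nulliparous and lactating wild-type mice and 0.816 to 4.04 and 3.5 to 9.31 in knockouts. None of the 5 was called between genotypes, and their part in the lactation values was not tested.

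Tox4, on chromosome 14, encodes a DNA-binding protein that joins the PNUTS and protein phosphatase 1 complex on chromatin. Wild-type mice measured 3.27, 3.45, 3.26 and 3.52 when nulliparous and 3.02, 3.39, 3.05 and 2.80 in lactation. The nulliparous knockouts measured 3.23, 3.32, 3.09 and 0.94, and the lactating knockouts -1.68, 1.61, -0.48 and -1.52. Replicate 4 of the nulliparous knockouts was low, below lactating knockout replicate 2, and the other 3 lay among the wild-type mice. The lactating genotypes differed by -3.58 ± 0.62, or 12-fold lower in knockouts, without overlap. The nulliparous genotypes differed by -0.73 ± 0.62, and by -0.16 without replicate 4. Lactation in knockouts gave -3.16 ± 0.62 with overlapping arrays, and without nulliparous replicate 4 -3.73, or 13.3-fold, with no overlap. Without lactating knockout replicate 2, the highest of its group, the lactating genotypes differed by -4.29 and lactation in knockouts gave -3.87.

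The other probe for Tox4 did not show this pattern. It averaged 0.85 ± 0.11 (SD, n = 4) in nulliparous wild-type, 0.88 ± 0.09 in lactating wild-type, 0.70 ± 0.12 in nulliparous knockout and 0.90 ± 0.12 in lactating knockout mice. Its lactating genotype difference was 0.018, and with both probes averaged that of the gene was -1.78. Nulliparous knockout replicate 4 was at 0.79 on this probe, among its group. The 2 probes of the gene therefore disagree, and which parts of the transcripts they read was not analysed here.

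**Figure D2:**
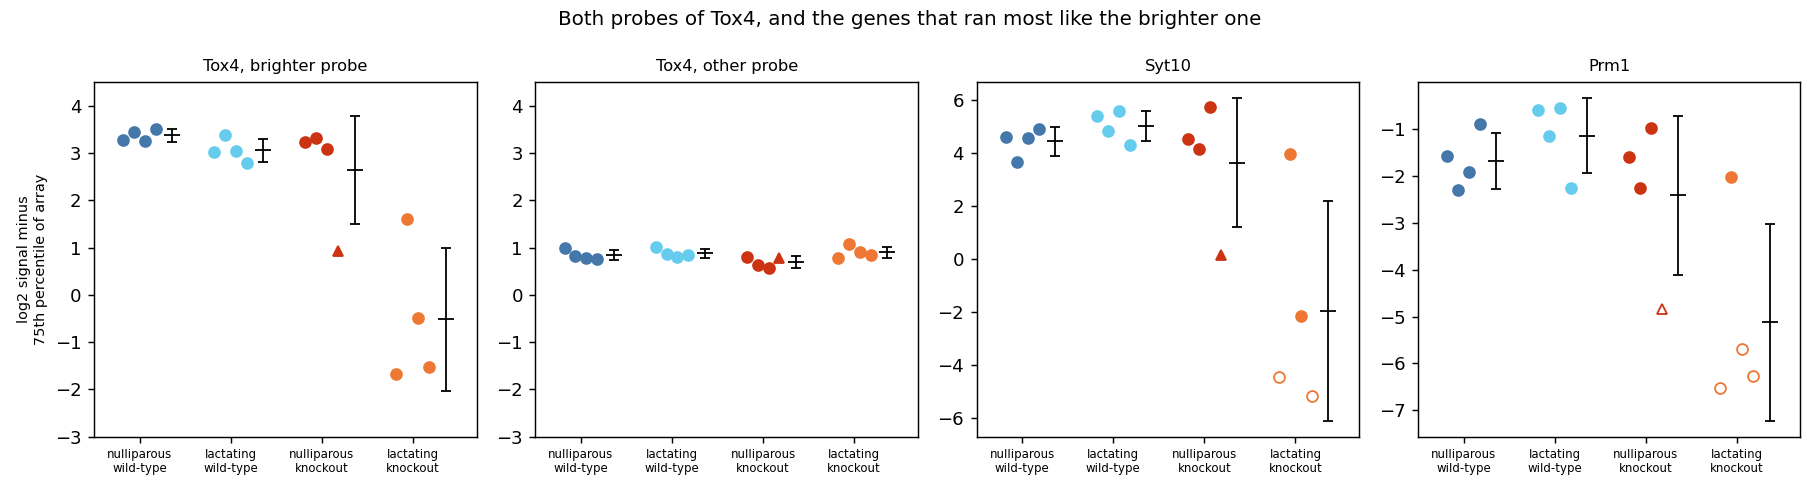
Levels (log2 signal, scaled to the 75th percentile of each array) of both Tox4 probes and of Syt10 and Prm1, the genes most like the brighter Tox4 probe, on 16 arrays. Open points lay not well above background, the triangle is nulliparous knockout replicate 4, and bars are mean ± SD (n = 4); the brighter probe reached -1.68 in lactating knockouts while the other stayed between 0.79 and 1.07.

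Of 8 other genes of the TOX family and the PNUTS complex limma called none between genotypes. In wild-type lactation 3 rose and 2 fell, and in knockouts 3 and 1. Ppp1r10, which encodes PNUTS itself, rose by 1.32 ± 0.24 and 1.07 ± 0.24 (adjusted p of 0.000541 and 0.00308), and the phosphatase subunit gene Ppp1cc by 0.52 ± 0.08 and 0.25 ± 0.08 (0.000169 and 0.0166). The knockout call for Ppp1cc ended without nulliparous knockout replicate 1 or lactating knockout replicate 2 (adjusted p of 0.0519 and 0.0532). Tox, a relative known from T cells, fell by 0.82 ± 0.25 and 1.47 ± 0.25 (0.015 and 0.000917), and with median centring the first was -0.64 and not called (adjusted p = 0.0532). The Tox4 window was 64.8% G or C and held 4 GC boxes, some of which overlap.

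**Figure D3:**
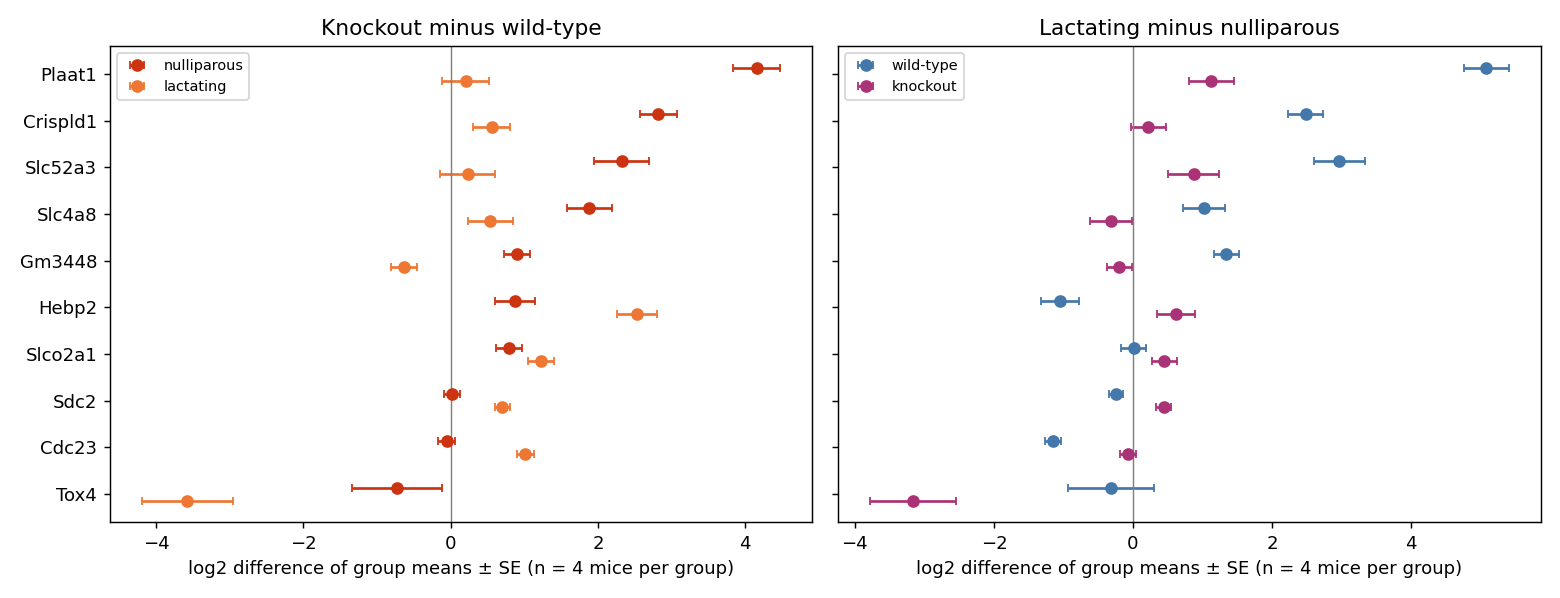
Differences of group means (log2 ± SE, n = 4 mice per group) for the 10 genes: knockout minus wild-type in nulliparous and lactating mice on the left, and lactating minus nulliparous in wild-type and knockout mice on the right. Plaat1 ran from 4.16 in nulliparous to 0.20 in lactating mice between genotypes, while Hebp2, Slco2a1, Cdc23, Sdc2 and Tox4 had the larger genotype difference in lactation.

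In all, 111 of 146 listed relatives could be tested, and limma called none of them between genotypes in nulliparous or lactating mice (0.0995% and 0.199% of all tested genes were called). At an unadjusted p under 0.05 there were 13 and 17 of the 111 relatives, both larger shares than the 8.62% and 9.13% of all genes. The lowest adjusted p was 0.308 and 0.203. None was called for the interaction, the test of whether the genotypes differ in their response to lactation, with 7 at an unadjusted p under 0.05 (0.0924% of all genes were called and 6.37% had such a p). Without nulliparous knockout replicate 2 the haem transporter gene Slc48a1 was called between nulliparous genotypes (0.71 ± 0.12, adjusted p = 0.0414), against 0.54 and 0.35 with all arrays. In wild-type lactation 39 relatives rose and 23 fell, 55.9% of them against 50.3% of all genes, of which 31.8% rose and 18.5% fell. In knockout lactation 32 rose and 22 fell, 48.6% against 44.1% of all genes, of which 25.5% rose and 18.6% fell.

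The chromosomal neighbourhood of the genes was read from the 5 nearest tested genes on each side, 100 in all. Limma called none of the 100 between genotypes in either state, with 6 and 12 at an unadjusted p under 0.05 and a lowest adjusted p of 0.375 and 0.114. Over all tested genes 8.62% and 9.13% had such a p, and 0.0995% and 0.199% were called. None of the 100 was called for the interaction, with 4 at an unadjusted p under 0.05 (6.37% of all tested genes had such a p). Without lactating wild-type replicate 4, 1 neighbour of Sdc2, Snhg18, was called between lactating genotypes (1.19 ± 0.20, adjusted p = 0.0333), against 0.98 and 0.114 with all arrays. In lactation 29 neighbours rose and 19 fell in wild-type mice and 26 and 16 in knockouts. Those were 48% and 42% of the neighbours, against 50.3% and 44.1% of all tested genes.

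Adipocyte markers were the one marker list that moved with genotype. Limma called 1 of 5 lower in nulliparous and 4 of 5 lower in lactating knockouts, Lep was never above background, and the summed signal was 217 to 256 and 184 to 300 in nulliparous and lactating wild-type mice and 244 to 313 and 197 to 254 in knockouts. Their part in the genotype differences of the 10 genes was not tested. Nulliparous knockout replicate 4 had the highest macrophage (34), dividing cell (4.04), red cell (423) and mesothelium (3.27) sums of its group. It had the lowest Schwann cell (105), adipocyte (244), ventricular cardiomyocyte (7140) and atrial cardiomyocyte (223) sums. Its endothelium, fibroblast and smooth muscle sums were neither highest nor lowest. Without that array 7 of the 10 genes were still wholly higher in nulliparous knockouts (7.52% of all tested genes, with 2% wholly lower), and in knockout lactation 3 were wholly higher and 2, Cdc23 and Tox4, wholly lower (31.7% and 24.1%). The Cdc23 difference was then only -0.15, against -0.08 ± 0.11 with all arrays, and that of Tox4 was -3.73.

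Over the 16 arrays the levels of Plaat1 and Crispld1 correlated at r = 0.93, those of Plaat1 and Slc52a3 at 0.92 and those of Crispld1 and Slc52a3 at 0.88. Hebp2 and Slco2a1 ran together at 0.80, and Slco2a1 and Sdc2 at 0.77. These values describe arrays that share the same 4 groups, and after the group means were taken out they were 0.29, 0.12, 0.19, 0.09 and 0.35.

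Of all tested genes, those most like each of the 10 across the 16 arrays were found by Pearson's r, which again holds the groups in common, and the second value in each pair is r after the group means were taken out. For Plaat1 they were Dmtn (0.953 and 0.86) and Tchhl1 (0.949 and -0.44), and for Crispld1 Cyb5a (0.928 and 0.52) and Manba (0.900 and 0.23). Slc52a3 ran with Tchhl1 (0.920 and 0.11) and Ctla2b (0.917 and 0.56), Gm3448 with Tchh (0.874 and 0.87), and Slc4a8 with Pex6 (0.838 and 0.51) and Map3k4 (0.838 and 0.61). The values for the genes most like Hebp2 were 0.851 and 0.38 (Slc25a46) and 0.827 and 0.52 (Alkbh2), and for Slco2a1 0.872 and 0.81 (Fli1) and 0.859 and 0.53 (Anxa9). Sdc2 ran with Dok7 (0.834 and 0.49) and Hemk1 (0.806 and 0.36), and Cdc23 with Adora3 (0.948 and 0.37) and Gm6524 (0.913 and 0.45). Of all 20 places, 2 per gene, 6 were held by genes on chromosome 3, where Npr1 lies. These were 5 different genes, Tchhl1, Manba, Tchh, Anxa9 and Adora3. Of all tested genes 4.76% lie on that chromosome. Of the genes limma called, it held 4 of 14 for genotype in nulliparous mice, 6 of 28 in lactating mice and 6 of 13 for the interaction. As the 10 genes were chosen for genotype differences, the share is no finding about them, and its reason was not tested.

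Tox4 was most like Syt10 (r = 0.965, and 0.95 within groups), a synaptotagmin gene, and Prm1 (0.937, and 0.91 within groups), the gene of the sperm protein protamine. Syt10 measured 4.52, 4.15, 5.75 and 0.16 in nulliparous knockouts and -4.45, 3.97, -2.16 and -5.18 in lactating knockouts. Prm1 measured -1.59, -2.25, -0.98 and -4.83 in nulliparous knockouts and -6.52, -2.03, -5.70 and -6.26 in lactating knockouts. Nulliparous knockout replicate 4 and lactating knockout replicates 1, 3 and 4 were not well above background in Prm1. Nor were lactating knockout replicates 1 and 4 in Syt10. Wild-type mice spanned 3.65 to 5.58 in Syt10 and -2.30 to -0.55 in Prm1. In both genes nulliparous knockout replicate 4 and lactating knockout replicates 1, 3 and 4 lay below every wild-type array, and lactating knockout replicate 2 lay within the wild-type range. In Tox4 the same 4 arrays were the lowest, and lactating knockout replicate 2 was the next lowest, also below every wild-type array.

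The sizes of the differences were smaller for most of the genes with normexp background correction. That alternative also used median spot signals in place of the processed signal and added an offset of 50, and which of these moved the values was not tested. Plaat1 was then 6.67-fold higher in nulliparous knockouts and 12.3-fold higher in wild-type lactation. Gm3448 was then 1.32- and 1.47-fold higher, and Slc4a8 was 2.02-fold higher in nulliparous knockouts. Cdc23 was then 1.35-fold higher in lactating knockouts. Tox4 was 8.79-fold lower in lactating knockouts. All of these kept their direction.

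**Figure D4:**
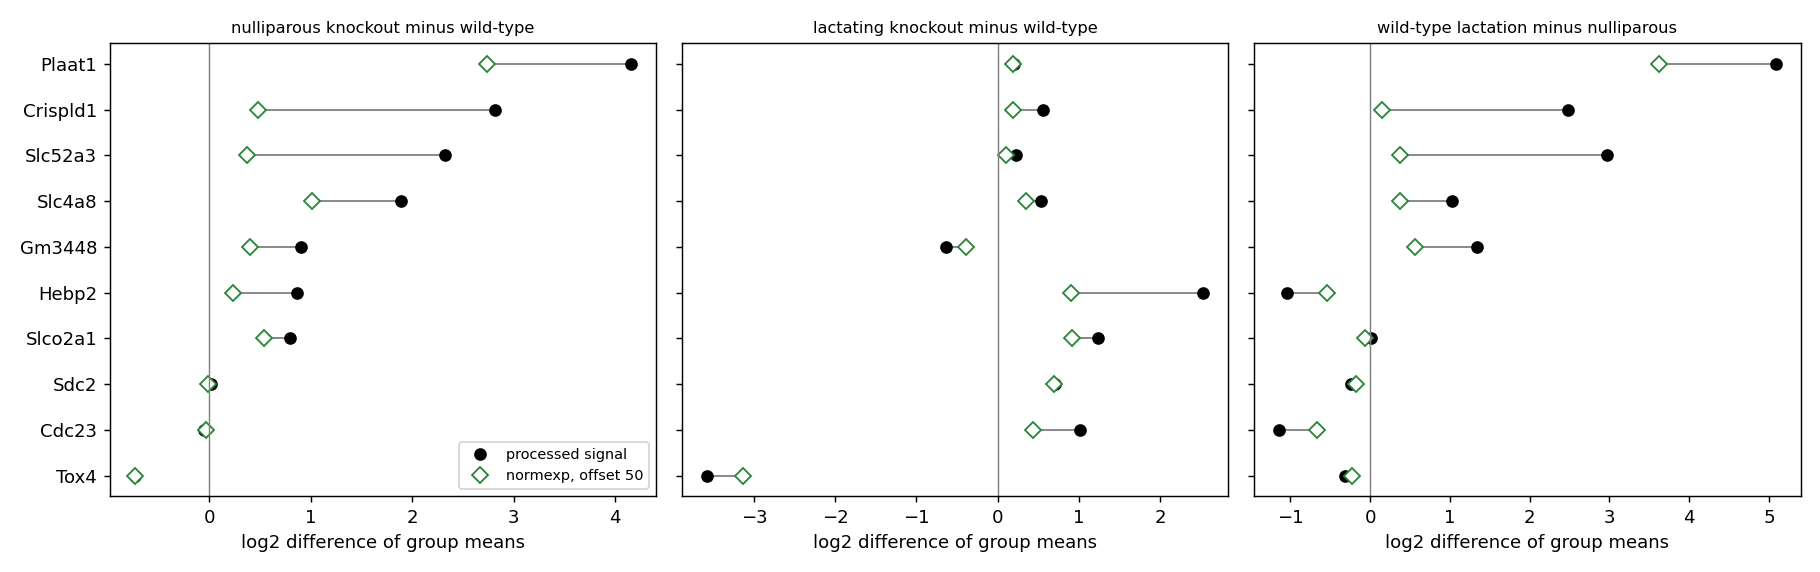
Differences of group means (log2) for the 10 genes from the processed signal (filled) and after normexp background correction with offset 50 (open), in 3 comparisons. Crispld1 moved from 2.82 to 0.48 and Slc52a3 from 2.32 to 0.37 in nulliparous mice, while Tox4 and Sdc2 moved little.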

How the data were processed

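Ventricular RNA of 16 female mice (200 ng labelled with Cy3 per mouse, per the labels' protocols) was measured on Agilent arrays. Values per spot came from Agilent Feature Extraction 10.7.3.1, per the submitters' processing notes. Per the file headers, the deposited signal is an intensity with local background subtracted and without scaling across arrays. A table of log2 values deposited by the authors matched log2 signal less the 75th percentile, centred on the nulliparous wild-type mean (r = 1 over 15422 bright probes, column medians of -0.382 to 0.0318), so scale, centring and direction are known.

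Control and outlier spots among the 62976 per array were left out, and the rest were averaged into 55681 probes. RefSeq accessions named 27793 of 28167 probes through a GRCm38.p6 gene table. The headers name mm9, so probes and genes are given no coordinates, and the upstream windows carry those of the GRCm38.p6 promoter table. A gene's brightest probe was log2-transformed, scaled to the array's 75th percentile and kept if well above background on all 4 arrays of a group, leaving 14065 genes and removing 7089. No probe was saturated. The 4 group means were fitted with limma 3.58.1 in R 4.3.3 (data.table, version 1.17.8, with 12 residual degrees of freedom), and a call is a Benjamini-Hochberg adjusted p under 0.05 over these genes. The fit was tested on simulated data. Figures were drawn with matplotlib 3.10.9 in Python 3.11.15.

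The members and lists were chosen with earlier results of these data known. The rule for named genes took the 10 members, the 2 genes most like each, relatives or neighbours called between genotypes, and up to 3 relatives per list with the largest called change in lactation; a few genes it took are not reported here. Each of the 2 slides held 8 arrays, with 2 of every group, and each group kept the same position on both, so position and group cannot be told apart. Alternatives were normexp background correction on the median spot and background signals, quantile normalization, median centring, no filter, a filter on 16 arrays, probe averages per gene, slide as a block or alone, the authors' table, a replicate block and leaving out each array.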

Additional observations from a re-analysis of the deposited data

Results flagged for a closer look

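A mouse far from the other 3 of its group was looked for in the 40 sets of 4 values that the 10 genes give, and chance marks about 1 in 20 such sets. The cause of these gaps was not tested. Hebp2 in lactating wild-type replicate 1 measured -4.84, with a gap to its nearest neighbour that was 0.895 of the group's range. Slc52a3 in nulliparous knockout replicate 1 measured -4.07, with a gap of 0.923 of the range. Tox4 in nulliparous knockout replicate 4 measured 0.94, with a gap of 0.903 of the range, and this is the mouse that stood apart on the first principal component.

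On its brighter probe Gm3448 was wholly higher in knockouts than in wild-type mice when nulliparous (0.90) and wholly lower in lactation (-0.63). On its second probe the lactating genotypes overlapped (-0.40). Because the gene was chosen from these values, no test of this change of sign is given.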

How the results depend on the processing

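Limma called 14, 28, 7071, 6205 and 13 genes for the genotype in nulliparous mice, the genotype in lactating mice, lactation in wild-type mice, lactation in knockouts and the interaction. Genotype calls in nulliparous mice numbered 7 with normexp background correction, 6 with no filter, 5 with the filter on all 16 arrays and 9 with the replicate block. In lactating mice they numbered 44, 17 and 18 with the first 3 of these, and the interaction had 6 with the filter on all 16 arrays. Leaving out 1 array gave 7 to 20, 13 to 48, 6234 to 7501, 4803 to 7495 and 10 to 20 calls. Counts moved by over 1.5 times without nulliparous wild-type replicate 1, 2 or 4, nulliparous knockout replicate 3 or lactating knockout replicate 3 in nulliparous mice (7, 7, 7, 8 and 9). In lactating mice they did so without nulliparous wild-type replicate 1 (16), lactating wild-type replicate 2 (18), lactating knockout replicate 1 or 4 (18 and 13) or nulliparous knockout replicate 4 (48), which also moved the interaction to 20. The count of relatives called stayed at 53 to 67 in wild-type and 46 to 57 in knockout lactation over the other settings, and at 52 to 67 and 42 to 60 with 1 array left out. With 1 array left out, 0 to 1 relatives were called between nulliparous genotypes and 0 to 1 neighbours between lactating ones. Same-numbered mice did not pair (correlations of deviations of -0.135 to 0.177), and a replicate block cannot move a difference of group means in this balanced design. Glipr1 in knockout lactation was -0.0335 with normexp background correction, the 1 named relative to change sign. No difference of the 10 genes whose arrays did not overlap changed sign under any alternative. Leaving out 1 array moved none of their 40 differences beyond the spread between replicates, and normexp moved 18. Median centring moved wild-type and knockout lactation to -0.96 and 0.11 for Cdc23 and to -0.06 and 0.62 for Sdc2, and it shifts every gene's lactation value alike. Signals near background limit Crispld1, Slc52a3 and Hebp2.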
